A study of Gallus gallus with 3 samples.

Results

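The miR-29 family comprised 3 of the 542 chicken miRNAs with a probe on the array: gga-miR-29a, gga-miR-29b and gga-miR-29c, chosen by their probe names and called miR-29a, miR-29b and miR-29c here. Their levels were measured in leg muscle (the gastrocnemius, by the study's methods) of chickens aged 7 weeks. Dwarf and normal strains of recessive White Rock meat-type chickens were compared, and the dwarf strain carries a deletion in the growth hormone receptor gene GHR. RNA of 3 chickens was pooled, and 3 two-colour arrays each held 1 dwarf and 1 normal pool, so 9 chickens stood behind each strain. The dwarf pool carried the Cy5 dye on arrays 1 and 3 and the Cy3 dye on array 2. Any other difference between the strains, apart from the deletion, cannot be told apart from it in this design. Each probe had 6 spots on an array, which gave 18 spots of the family on each array and 54 in all.

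The miR-29 miRNAs are small RNAs that lower the level and translation of messenger RNAs carrying a site that pairs with their seed, the bases near the 5′ end. In mammals they are known as regulators of extracellular matrix genes, among them several collagen and elastin genes, and in mouse muscle cells they promote myogenic differentiation. The 3 mature sequences that the array was designed to read are shown because they explain what the probes can tell apart. They are written 5′ to 3′, with the seed (bases 2 to 8) in capitals.
miR-29a: uAGCACCAuuugaaaucgguu
miR-29b: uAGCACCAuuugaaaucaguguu
miR-29c: uAGCACCAuuugaaaucggu

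The seed was the same in all members, and no other of the 542 probes on the array had it. MiR-29c, with 20 bases, was identical to the first 20 of the 21 bases of miR-29a, so their probes cannot tell these RNAs apart by any internal base. Counted from 1 at the 5′ end, with the base of miR-29a first, miR-29b differed from miR-29a by G18A and U21G, and it had 2 further bases at its 3′ end. Outside the family, the closest probe was 7 edits (substituted, inserted or deleted bases) away from miR-29a and miR-29c and 8 from miR-29b. In the RefSeq gene table of the assembly bGalGal1.mat.broiler.GRCg7b the family has 4 genes, which lie in neighbouring pairs. MIR29B1 lies beside MIR29A, with no host gene, and MIR29C lies beside MIR29B2 within C4BPM. MiR-29b has 2 genes, and its probe reads their common product.

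None of the 3 members was detected in leg muscle of either strain. A miRNA was called detected when its signal, the intensity above background after normalization, averaged above 32 over the 3 pools of a strain. The value of 32 is the study's, while the averaging over pools and the processing of the signals were chosen here. By this standard for detection the dwarf strain had 97 detected miRNAs among the 542 (17.9%) and the normal strain had 78 (14.4%). Other processing gave other counts for dwarf and normal chickens. They were 83 and 82 without loess and scaling, and 92 and 92 with the background taken from the empty spots (without a probe). With the median of the 6 spots they were 87 and 78. Why the strains had unequal counts in some settings was not tested. The members lay at the level of the local background in both dyes. This local background was a smooth surface fitted through the miRNA spots of each array and dye, most of which were assumed to show no hybridization. Any signal common to most miRNA spots would be taken up in this surface. The members were thus not detected at the brightness of these arrays, and a faint signal would be missed. The standard of 32 applies to normalized signals, and near the background the normalization rescaled values by dye. The faintest signal that would reach it was not determined. In Cy3 the spots scattered around the background with a median absolute deviation of 35.9, 12.8 and 30.9 on arrays 1, 2 and 3. In Cy5 it was 3.25, 2.71 and 4.31, and each strain was read in Cy5 on at least 1 array.

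MiR-29a had a mean intensity of 51.1 ± 2.72 (SD, 6 spots) in the dwarf pool and 837.7 ± 40.2 in the normal pool of array 1. On array 2, with the dyes swapped, the dwarf pool read 311.8 ± 20.5 and the normal pool 45.6 ± 1.89, and on array 3 the dwarf pool read 54.0 ± 2.68 and the normal pool 713 ± 36.5. These levels followed the dye and not the strain, and the background was 836, 306 and 701 in Cy3 and 51.3, 44.6 and 53.0 in Cy5 on the 3 arrays. Once the background was subtracted, miR-29a was at -0.219, 5.50 and 1.01 in the dwarf pools and at 1.65, 1.03 and 11.8 in the normal pools. The normalized signals were -11.8, 1.42 and 5.90 in dwarf and 2.11, 1.40 and 4.72 in normal chickens. None of these signals reached the standard of 32, and the dwarf and normal pools overlapped.

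MiR-29b, the member with 23 bases, was also at the background. The dwarf pools had mean intensities of 50.4 ± 2.26 (SD, 6 spots) on array 1, 307 ± 18.5 on array 2 and 52.6 ± 3.06 on array 3. For the normal pools the intensities were 836 ± 21.7, 45.2 ± 1.97 and 708 ± 21.8. Its dwarf pools lay at -0.888, 1.22 and -0.379 relative to the background and its normal pools at 0.102, 0.625 and 6.91. The dwarf and normal pools overlapped, and none reached the standard for detection. The means were -0.0165 ± 1.10 (SD, n = 3 pools) in dwarf and 2.55 ± 3.79 in normal chickens.

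MiR-29c stood apart on array 1 alone. There its 6 spots had a mean intensity of 80.1 ± 74.0 (SD) in the dwarf and 884 ± 139.6 in the normal pool, an SD far above that on the other arrays, where it was at most 3.87 in Cy5 and 36.7 in Cy3. Above background it was at 28.8, 3.18 and 0.0700 in the dwarf pools and at 48.6, 1.02 and 12.5 in the normal pools. After normalization its signal on array 1 was 85.1 in the dwarf and 44.0 in the normal pool, the only pools of the family above 32, while on arrays 2 and 3 it was between -4.94 and 3.28. The mean over pools was 27.0 ± 50.4 (SD, n = 3 pools) in dwarf and 16.2 ± 24.1 in normal chickens.

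Those values rested on 1 spot. It read 1165 in Cy3 and 231 in Cy5, while the other 5 spots of miR-29c on array 1 read between 801 and 873 in Cy3 and between 47.1 and 53.8 in Cy5. The spots of miR-29a on the same array, whose target holds all bases of miR-29c, read between 804 and 917 in Cy3 and between 48.5 and 54.6 in Cy5. On arrays 2 and 3 the spot at the same position was 2.34 and 1.75 above the Cy5 background. Of its 8 neighbours on array 1, 6 lay within 2 median absolute deviations of the background in both dyes, and the 2 that were brighter, probes for miR-181a and miR-181b, were bright on all 3 arrays. Among the 445 undetected miRNAs, miR-29c was the 1 on array 1 with a single spot more than 100 above the Cy5 background and the other 5 under 32, and there were 2 such miRNAs on array 2 and 1 on array 3. This limit was chosen after the spot had been seen. With the position of this spot left out on all 3 arrays, the mean signal of miR-29c was -11.0 in dwarf and 1.19 in normal chickens. With the median of the 6 spots it was 2.70 and 1.31.

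**Figure D1:**
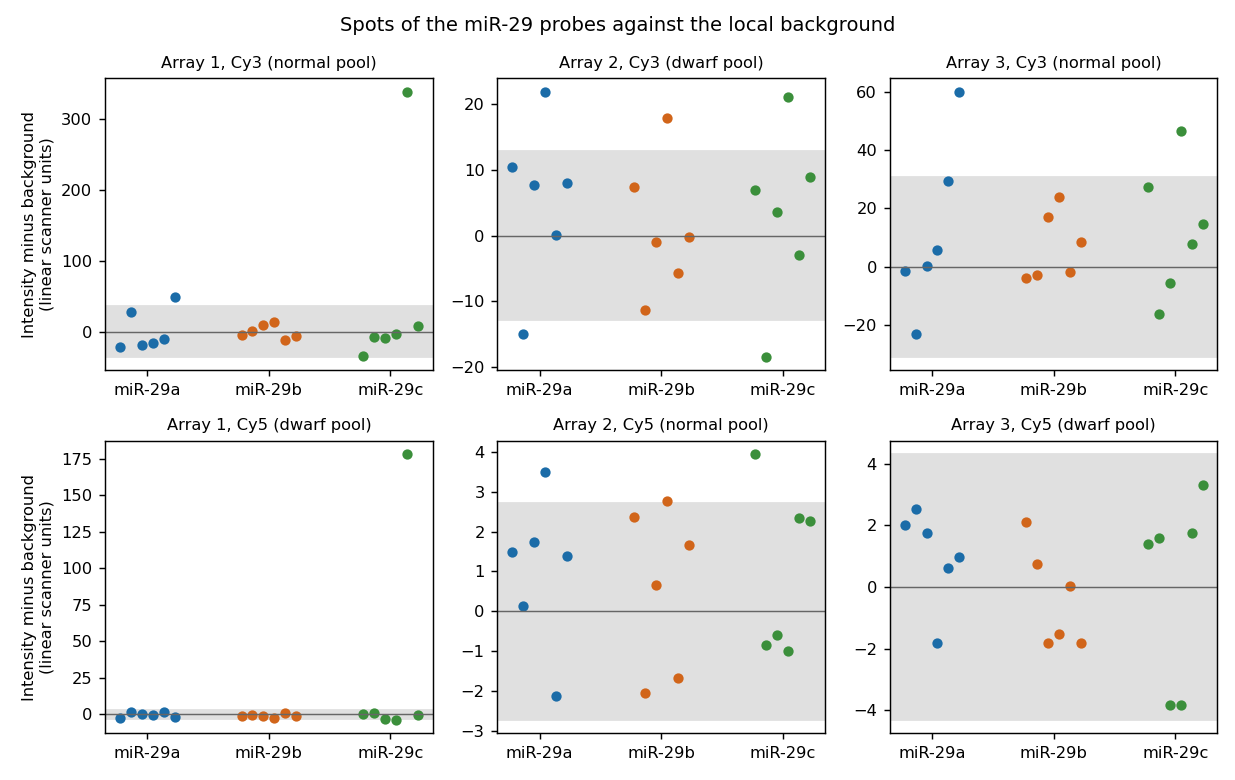
Intensity minus local background (linear scanner units) of the 6 spots of each miR-29 probe, by array (columns) and dye (rows), each panel on its own scale, with the grey band at 1 median absolute deviation of all miRNA spots on either side of 0. The spots lie around 0 in every panel, apart from 1 spot of miR-29c on array 1, which is 339 above background in Cy3 and 178 in Cy5.

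The other 53 spots of the family lay on both sides of the background, as any spots without hybridization would by the way the surface was fitted. On array 1 they were between -34.3 and 49.3 from the background in Cy3 and between -3.55 and 1.72 in Cy5. On array 2 the ranges were -18.4 to 21.9 and -2.11 to 3.93, and on array 3 they were -23.1 to 60.0 and -3.83 to 3.32. The empty spots, which hold no probe, had lower Cy3 medians than the miRNA spots as a whole, at 654 against 837 on array 1, 288 against 309.7 on array 2 and 632 against 707 on array 3. In Cy3 the members' mean intensities thus stood above the median of the empty spots, as the median miRNA spot did. Single spots overlapped. The brightest empty spots read 859, 489 and 766 in Cy3 on arrays 1, 2 and 3, and the lowest member spot on array 2 read 273. In Cy5 the medians of the empty and the miRNA spots were 50.3 and 51.95 on array 1 and 44.5 and 44.96 on array 2. On array 3 they were 56.3 and 54.06, with the empty spots the brighter.

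**Figure D2:**
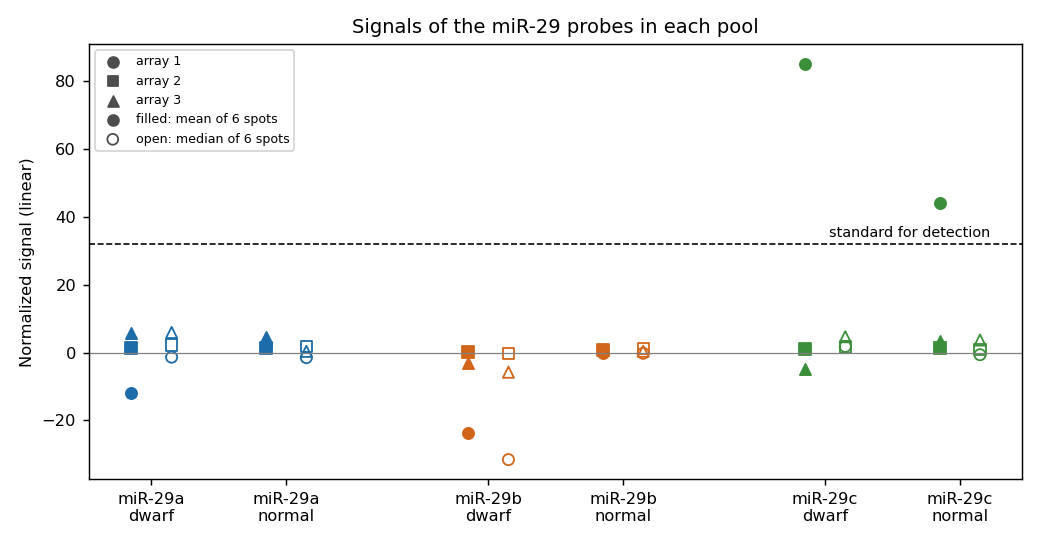
Normalized signal (linear scale) of the miR-29 probes in each dwarf and normal pool, as the mean (filled) and the median (open) of 6 spots, with a symbol for each array and a dashed line at 32. MiR-29c on array 1 is above the line by the mean, at 85.1 and 44.0, and below it by the median.

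Whether the strains differed in the amount of miR-29 RNA cannot be read from values at background, so the ratios given for the members are ratios of such values and not fold changes of the RNA. The signals of the 3 dwarf and the 3 normal pools overlapped for miR-29a and miR-29c. For miR-29b they overlapped as well, at -23.6, 0.122 and -2.99 in dwarf and 0.0110, 0.867 and 0.811 in normal chickens. An exact permutation test of the 6 signals (two-sided, 3 pools in each strain) gave p = 0.8 for miR-29a, p = 0.2 for miR-29b and p = 1 for miR-29c, where the smallest possible p is 0.1. That test did not use the pairing of pools by array, and its p-values also depend on how the normalization scaled each dye. Near the background the normalization changed the size of a value by dye. It made the members' Cy5 values larger in size, as for miR-29b in the dwarf pool of array 1 (from -0.888 to -23.6), and their Cy3 values smaller, as for miR-29b in the normal pool of array 3 (from 6.91 to 0.811), except for miR-29a in the normal pool of array 1 (from 1.65 to 2.11).

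Because no member passed the standard for detection, none was among the 97 miRNAs tested between the strains. All 97 passed the standard in dwarf chickens and 78 passed it in normal chickens, so some entered the test through the dwarf strain only. Of all 97, 0 (0%) had an adjusted p under 0.05 by limma with Benjamini-Hochberg adjustment and 6 (6.19%) an unadjusted p under 0.05. With all 542 miRNAs in the fit, 0 (0%) were called after adjustment and 20 (3.69%) before it, and the 3 members were among neither. Their dwarf over normal log2 ratios, after normexp with an offset of 50 and loess, averaged -0.0093 for miR-29a (standard error 0.023, adjusted p = 0.913, limma), -0.022 for miR-29b (standard error 0.023, adjusted p = 0.903, limma) and 0.017 for miR-29c (standard error 0.040, adjusted p = 0.913, limma). The offset draws ratios of dim miRNAs toward 0, so these small values and errors do not bound a difference in the RNA. On arrays 1, 2 and 3 the log2 ratios were -0.017, 0.0028 and -0.013 for miR-29a. They were -0.032, -0.010 and -0.024 for miR-29b, below 0 on every array. For miR-29c they were 0.11, -0.015 and -0.039, and the first of these was -0.021 without the bright spot. Flipping the signs of these ratios in an exact permutation test (two-sided) gave p = 0.5, p = 0.25 and p = 1 for the 3 members, where 0.25 is the smallest p possible.

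The authors' own table also gave a log2 ratio for each member, background or not. After LOWESS, miR-29a was at 0.026, 0.57 and -0.42 on arrays 1, 2 and 3 and miR-29b at -0.046, 0.10 and -0.69. MiR-29c was at 1.66, 0.70 and -1.41, the widest spread in the family. All 3 members were below 0 on array 3, and on array 2 all were above 0. Over the 445 undetected miRNAs the range from the 5th to the 95th percentile of these values ran from -1.10 to 1.64 on array 1, from -0.99 to 0.96 on array 2 and from -0.96 to 1.30 on array 3. MiR-29a and miR-29b lay within these ranges on all arrays, while miR-29c lay above on array 1 and below on array 3. The means over the 3 arrays were 0.060 ± 0.49 (SD, n = 3) for miR-29a, -0.21 ± 0.42 for miR-29b and 0.32 ± 1.57 for miR-29c, each smaller than the spread between arrays. In a limma fit of all 542 miRNAs on this table, 0 (0%) were called after adjustment and 24 (4.43%) at an unadjusted p under 0.05, none of them a member (adjusted p = 0.99, 0.964 and 0.964, limma).

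**Figure D3:**
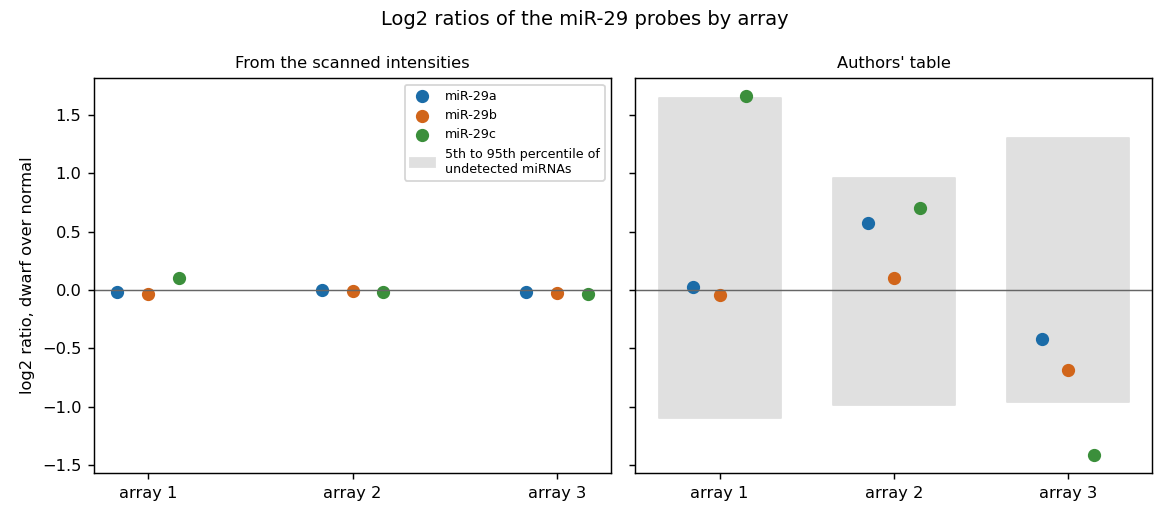
Log2 ratio of dwarf over normal (y axis) of the miR-29 probes on each array (x axis), calculated from the scanned intensities (left) and as given in the authors' table (right), where the grey bars span the 5th to the 95th percentile of the 445 undetected miRNAs. On the left the points lie between -0.039 and 0.11, and on the right miR-29c runs from 1.66 on array 1 to -1.41 on array 3.

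Bright miRNAs of muscle were detected on these arrays, which does not show how faint a signal could be read. Of 7 miRNAs that mark skeletal muscle (miR-1a, miR-1b, miR-133a, miR-133b, miR-133c, miR-206 and miR-499), 6 were detected. The summed signal of the 7 was 30654 to 69221 in the dwarf and 36119 to 59767 in the normal pools. MiR-1b was not detected, and miR-499 averaged 290 in dwarf and 34.8 in normal chickens. Each sum in this paragraph covers all listed miRNAs, also those not detected, with negative signals counted as 0. Of the 6 detected, 1 (miR-499) had a higher and 1 (miR-1a) a lower log2 ratio at an unadjusted p under 0.05 (limma). The mean signals of miR-1a were close, at 23443 in dwarf and 24640 in normal chickens. Its dwarf signal was the lower on arrays 1 and 2 and the higher on array 3 (32213 against 27386). Among all 97 miRNAs tested, 5 were higher and 1 lower at that limit (6.19% together). The 97 include miRNAs that passed the standard in dwarf chickens only, so these counts cannot be read as a lean toward higher levels there. An example among the 5 is miR-3523, at 111 in dwarf and 16.5 in normal chickens. After adjustment, 0 of the 6 were called (limma, smallest adjusted p = 0.559). Of 4 miRNAs listed here for tissue rich in fibroblasts, miR-199 and its other strand miR-199* were detected, while miR-214 and miR-140 were not. Fibroblasts are the cells in which matrix genes are chiefly expressed. The sum of the 4 was 1865 to 2851 in the dwarf and 1884 to 2640 in the normal pools. MiR-140*, the other strand of miR-140 and not among the 4, was detected, at 198 in dwarf and 227 in normal chickens. Markers of blood cells were dim, with 2 of 5 detected (miR-451 and miR-223) and a sum of 52.5 to 202 and 89.6 to 121, and the liver miRNA miR-122 was at 75.0 ± 70.2 (SD, n = 3 pools) in dwarf and 166 ± 43.2 in normal chickens. The part of these other cells in the results was not tested. Of the vessel pair, miR-126 was detected and miR-126* was not, with a sum of 2313 to 6014 and 2357 to 3833.

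Like the miR-29 members, several other miRNAs are known in mammals to act on extracellular matrix or on fibroblasts. Of 15 such miRNAs, 11 were detected, namely miR-21, miR-24, 4 of the miR-30 family, the 3 miR-133 miRNAs, miR-199 and miR-199*. MiR-30e, miR-200a, miR-200b and miR-214 were not detected. None of the 11 was past an adjusted p of 0.05 (limma). MiR-30b, whose family is known in rodents to act on connective tissue growth factor, was past an unadjusted p of 0.05, with a log2 ratio of 0.61 (adjusted p = 0.559, limma), and its share of 1 in 11 stands beside 6 of 97 (6.19%) among all miRNAs tested. The median log2 ratio of the 11 was 0.073, beside 0.068 over the 97.

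The members are poor in G and C, with a GC content of 38.1% for miR-29a, 34.8% for miR-29b and 40% for miR-29c. Among the 94 miRNAs with a GC content of 40% or less, 14 (14.9%) were detected, against 83 of 448 (18.5%) above it. At or under the GC content of miR-29b, 5 of 40 (12.5%) were detected. The part of base composition in the members' low signal was not tested.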

How the data were processed

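Scanning was done for the authors by a service provider. For every spot and dye the deposited tables hold the mean intensity on a linear scale, with no background taken off. A second deposited table holds the authors' log2 ratios, 1 for each miRNA on each array, for which the methods name background subtraction followed by LOWESS. How spots were combined in it is not given in the sources used here. Its direction was taken from its correlation with the scanned ratios over all 542 miRNAs (0.514, 0.45 and 0.57 on arrays 1 to 3), while scale and centring were kept. The sample titles name normal chickens before dwarf chickens, the reverse of the dwarf over normal direction that the correlation gave. The pools' dyes came from the sample records.

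In R 4.3.3 with limma 3.58.1, background was estimated, for each dye of an array, by a robust loess surface (span 0.3, degree 1) of the miRNA spots' log2 intensity across rows and columns. For ratios, normexp (offset 50, all spots) and loess (span 0.3, 4 iterations, miRNA spots) were applied, 6 spots were averaged on the log2 scale and array 2 was turned. Signals were made by subtracting the background, removing a loess curve fitted on spots above background in both dyes, and scaling arrays to a common median. Below the background that curve was held at its end value, which has little basis there, so intensities above background are given as well. The mean ratio was tested against 0 by lmFit and eBayes, with p-values adjusted by Benjamini-Hochberg at a threshold of 0.05. The steps were tried on simulated arrays. Changes were placed in bright miRNAs only, so the simulation does not show how a difference in dim miRNAs would be read.

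The members, lists, tests and alternatives were chosen with earlier results of these data known. The named miRNAs were the 3 members, probes sharing their seed, and listed miRNAs past an unadjusted p of 0.05. The miRNAs closest in pattern were to be named only for tested members, so none is. Others are named as examples chosen after their values were seen. Each array is 1 replicate, and the labels do not say how chickens were assigned to pools. The precision is limited by 3 arrays. The SDs of pixels were not used.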

Additional observations from a re-analysis of the deposited data

How the results depend on the processing

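Detection was recalculated with the background from the empty spots, with no loess and scaling, with the median of the 6 spots, without the bright spot and with each array left out. The 3 members stayed under the standard in each, except miR-29c without array 3. Its dwarf signal was then 41.7, with the bright spot (0 to 1 members with an array left out). The empty-spot background was tried only with loess, so that setting cannot decide detection. No member was past an adjusted p of 0.05 in the fits that tested it, in which the adjusted p was 0.903 to 0.969 (limma). The number of miRNAs called was 0 except in 4 fits. It was 1 of 62 with a mean signal above 100 and 4 of 97 with the GC trend taken out. With array 1 left out it was 1 of 94, and with array 3 left out 2 of 99 (0 of 104 without array 2). Apart from miR-29c without array 3, no member was tested in these fits. At an unadjusted p of 0.05 the count ran from 1 (no replicate block) to 19 (median centring) of 97, and was 20 of 542. It was 5 by the methods' t-test paired by array (0 after adjustment). The log2 ratios, ratios of values at background, moved beyond their small spread between arrays under some settings. For miR-29a and miR-29b they were -0.27 and -0.20 with plain background subtraction, -0.023 and -0.034 with the background from the empty spots, -0.035 and -0.059 with median centring in place of loess, -0.026 and -0.041 with the GC trend taken out, and 0.060 and -0.21 in the authors' log2 ratios, where miR-29c was at 0.32. MiR-29b was at -0.046 with a normexp offset of 16, and miR-29a at 0.0044 with the median of the 6 spots. The cause of these moves was not tested.

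With the background from the empty spots, the dwarf signals of miR-29a, miR-29b and miR-29c were -323.5, -479.1 and -436.6. With the rescaling by dye they cannot be read as a strain difference. In normal chickens miR-29a and miR-29b were at 5.76 and 2.11 with that background and at 4.84 and 2.55 with no loess and scaling. In those chickens miR-29a was at 0.235 with the median of the 6 spots, and miR-29b at 0.322 to 1.11 with an array left out. The background was brighter in Cy3 than in Cy5 on every array, and its part in what was detected was not tested. The setting without the bright spot was chosen after seeing the data.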
